A study of Mus musculus with 24 samples.

Results

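Glypicans, syndecans and serglycin are the core proteins that carry glycosaminoglycan chains at the cell surface and in secretory granules. Of the 22282 genes in the files, 9 were taken: the glypicans Gpc1, Gpc3, Gpc4 and Gpc6, the syndecans Sdc1, Sdc2, Sdc3 and Sdc4, and serglycin, Srgn. They were chosen by family and with their transcript levels in the 8 groups of cells known, so their levels and their differences between groups are given as a description. No p is given for them, and where a fit over all genes puts them past its threshold, that is recorded as part of the description and is no independent evidence. All 9 had a mean of at least 1 over the 24 libraries, in fragments per kilobase scaled to the library (FPKM), and so passed the filter on low values.

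Glypicans are bound to the outer membrane by a lipid anchor, syndecans span it, and both carry mainly heparan sulfate, which binds growth factors such as VEGF and FGF and presents them to their receptors. Serglycin lies in granules and secretory vesicles of blood cells and endothelial cells (ECs), where its chains hold proteases and chemokines. In endothelium the surface proteoglycans form part of the glycocalyx that lines the vessel. The chains are built on the core proteins in the Golgi by a linkage enzyme set, polymerases and sulfotransferases, and are edited outside the cell by sulfatases and heparanase.

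RNA was sequenced from 3 libraries of each of 8 groups of mouse cells of the C57BL/6J genotype. MACs are amniotic fluid cells from embryos of both sexes aged E11.5 to E13.5, grown in an amniocyte medium. RACVECs are MACs transduced with lentiviruses for Etv2, Erg and Fli1 from the PGK promoter and grown in EC medium with heparin, a TGFβ receptor inhibitor and VEGF-A. Akt-MACs and Akt-RACVECs carry in addition constitutively active myristoylated Akt, and Sox17-RACVECs are RACVECs that received a Sox17 lentivirus and puromycin selection. Akt-LECs and Akt-liver ECs are lung and liver ECs taken with CD31 beads, transduced with the same Akt, cultured and sorted again for VEcad and CD31. LSECs are liver ECs sorted directly from the mouse, without culture and without a virus. RACVECs and MACs therefore differ in medium as well as in the transduced factors, and LSECs and Akt-liver ECs differ in culture, sort and Akt, and these cannot be told apart. The paper does not state the medium of the Akt-MACs. Whether they differ in medium from the MACs or from the Akt-RACVECs is therefore not known here. The ages of the adult mice are not given in the sources used here.

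Before the proteoglycans, several libraries had to be set apart. The 8 endothelial markers summed to between 8.11 and 55.6 FPKM in the 6 libraries of MACs and Akt-MACs, to between 1480 and 2732 FPKM in RACVECs, and to at least 4050 FPKM in every library of the other groups. The library labelled Sox17-RACVEC 2 lists Etv2 at 0, against 458 FPKM in Sox17-RACVEC 1 and 378 FPKM in Sox17-RACVEC 3, and its Erg was 387 FPKM against 4.49 and 0 FPKM. Sox17 itself was 5.09, 40.1 and 200.1 FPKM in Sox17-RACVECs and listed at 0 in RACVECs, and Akt1 was at least 848 FPKM in Akt-MACs and Akt-RACVECs against at most 694 FPKM in MACs and RACVECs. Macrophage markers summed to 911, 13621 and 42368 FPKM in the Akt-MACs and to between 12103 and 19983 FPKM in LSECs, against at most 14.7 FPKM in MACs. Akt-LEC 1 and Akt-liver EC 1 held Col1a1 at 1065 and 556 FPKM, where the other libraries of these groups held at most 5.66 FPKM. Mesothelial and epithelial markers summed to 3197 FPKM in RACVEC 3, 2737 FPKM in Akt-MAC 3 and 1691 FPKM in Akt-liver EC 1. In every other library they summed to at most 286 FPKM, and the part of such cells was not tested. These libraries were kept, and the values without them are given where a result rests on them. Erg was low in RACVECs, at 3.91, 13.8 and 0.90 FPKM, although their label names it, and was 395, 1002 and 418 FPKM in Akt-RACVECs. In bulk RNA, fewer cells of a type and less RNA per cell cannot be told apart.

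On mm9 (NCBIM37), the glypicans lie at chr1:94728222-94756775 for Gpc1, chrX:49625603-49967127 for Gpc3, chrX:49406198-49518429 for Gpc4 and chr14:117324519-118378751 for Gpc6. Gpc3 and Gpc4 are neighbours on the X chromosome, both on the minus strand. The syndecans lie at chr12:8778129-8800521 for Sdc1, chr15:32850478-32964485 for Sdc2, chr4:130348452-130382234 for Sdc3 and chr2:164249747-164269387 for Sdc4. Srgn lies at chr10:61956581-61990199 on the minus strand. All values are sums over the transcripts of a gene, which concerns Gpc6 alone, since the other members are listed with 1 transcript each.

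The cells were converted with Ets factors, so the bases upstream of the RefSeq transcription starts were read for the Ets cores CCGGAA and CAGGAA on both strands, where the table held the gene. RefSeq promoters of GRCm38.p6, a later build than that of the expression files, were found for Gpc3, Gpc4, Sdc1, Sdc3, Sdc4 and Srgn. The 250 bases upstream are shown 5′ to 3′ on the gene's strand for the gene that was highest in converted cells, Srgn, at both of its listed starts (minus strand, chr10:62507758-62508007 and chr10:62527446-62527695), for Sdc4 (minus strand, chr2:164443189-164443438) as the other gene with a match, and for Gpc3 (minus strand, chrX:52613975-52614224), which was lowest there and held neither core. Capitals mark a core or its reverse complement. The paper gives its Ets motif as (A/C)GGAA(G/A), of which these cores cover only some forms. Of the windows not shown, that of Sdc1 held another form, AGGAAG, and that of Gpc4 held its reverse complement, CTTCCT. Members without a listed promoter may hold a match as well.
Srgn, first window: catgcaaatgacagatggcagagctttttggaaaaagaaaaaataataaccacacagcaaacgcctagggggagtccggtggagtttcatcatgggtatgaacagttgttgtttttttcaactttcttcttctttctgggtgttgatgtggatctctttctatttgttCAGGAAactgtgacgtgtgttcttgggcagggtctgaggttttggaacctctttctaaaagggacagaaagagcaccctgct
Srgn, second window: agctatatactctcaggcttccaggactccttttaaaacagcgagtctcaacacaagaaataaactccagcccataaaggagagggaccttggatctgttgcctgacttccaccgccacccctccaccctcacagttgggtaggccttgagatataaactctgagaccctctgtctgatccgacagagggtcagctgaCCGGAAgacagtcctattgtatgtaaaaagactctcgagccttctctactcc
Sdc4: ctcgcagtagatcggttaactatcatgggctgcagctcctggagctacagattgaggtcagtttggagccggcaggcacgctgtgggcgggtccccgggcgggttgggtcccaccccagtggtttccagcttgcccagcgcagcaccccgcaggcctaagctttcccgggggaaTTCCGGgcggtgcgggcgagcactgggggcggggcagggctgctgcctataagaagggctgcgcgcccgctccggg
Gpc3: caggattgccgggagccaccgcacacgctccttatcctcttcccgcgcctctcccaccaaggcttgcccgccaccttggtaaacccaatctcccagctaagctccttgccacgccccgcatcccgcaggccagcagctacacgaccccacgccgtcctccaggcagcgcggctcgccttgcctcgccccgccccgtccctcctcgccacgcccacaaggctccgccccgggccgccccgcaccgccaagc
The first Srgn window held 1 CAGGAA, and the second held 1 CCGGAA. The Sdc4 window held 1 CCGGAA, printed as TTCCGG. Among all 32851 promoters of the table, 12% held CCGGAA and 25.7% held CAGGAA in the same 250 bases, so such a match is common and describes the letters only. The Sox core ACAAT, which 27.7% of the promoters held, occurred once, in the second Srgn window, and is not in capitals.

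Srgn was the highest of the 9 transcripts in 16 of the 24 libraries, among them every library of RACVECs, Akt-RACVECs, Sox17-RACVECs, Akt-LECs and LSECs, and in 0 of the 6 libraries of MACs and Akt-MACs. In MACs the highest was Gpc3, Gpc1 or Sdc4, by library. The 4 glypicans summed to 2793, 578 and 1631 FPKM in MACs and to 409, 269.5 and 392 FPKM in RACVECs. In Akt-RACVECs they summed to 102, 14.4 and 0 FPKM, the lowest group mean of the 8 at 38.8 FPKM. The 4 syndecans had group means of their sum from 465 FPKM in Akt-RACVECs to 2363 FPKM in Akt-MACs. Srgn made up 48.7% of the summed FPKM of the 9 genes in RACVECs, 75.8% in Sox17-RACVECs, 81.6% in LSECs and 82.5% in Akt-RACVECs.

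**Figure D1:**
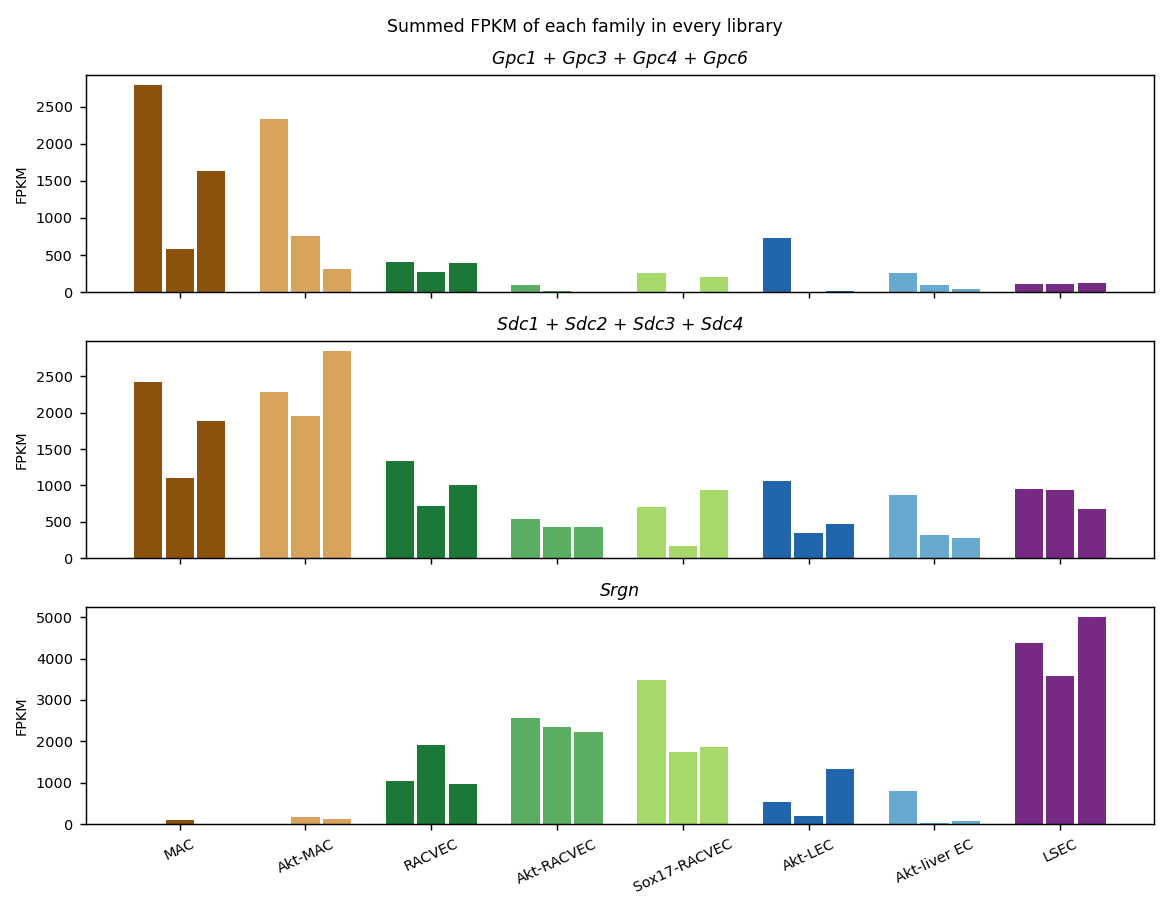
Summed FPKM (linear axis from 0) of the 4 glypicans, the 4 syndecans and Srgn in each of the 24 libraries, 1 bar per library, coloured by group, with replicates 1, 2 and 3 from left to right. The glypican bars of Akt-RACVECs are 102, 14.4 and 0 FPKM where those of MACs reach 2793 FPKM, and the Srgn bars run the other way, from 0 in 2 MAC libraries to 4999 FPKM in LSECs.

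Among the glypicans, Gpc3, whose loss causes an overgrowth syndrome and which restrains Hedgehog signalling, had the largest difference between MACs and converted cells. Its FPKM was 1789, 83.5 and 151 in MACs and 10.7, 0 and 0 in RACVECs, and every MAC library was above every RACVEC library. In Akt-MACs it was 11.8, 9.85 and 119 FPKM, in Akt-RACVECs 1.57, 2.73 and 0 FPKM, and in Sox17-RACVECs it is listed at 0 in all 3 libraries. In the ECs taken from tissue it was 2.93, 5.15 and 8.13 FPKM in LSECs, and at most 3.22 FPKM in the cultured ECs other than Akt-LEC 1 with 112 FPKM and Akt-liver EC 1 with 25.9 FPKM. The level in MACs was uneven, and MAC 1 alone held most of it.

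Gpc1, a glypican that binds FGF and VEGF, was 422, 57.3 and 1214 FPKM in MACs and 1653, 385 and 19.6 FPKM in Akt-MACs. In RACVECs it was 109.7, 75.6 and 144 FPKM, within the range of the MACs. In Akt-RACVECs it was 44.1, 1.28 and 0 FPKM, and in Sox17-RACVECs it was 0.91, 0 and 1.04 FPKM, so that neither group overlapped with the RACVECs. Freshly sorted LSECs held it evenly at 83.8, 83.5 and 89.2 FPKM, and each was above all 3 Akt-liver ECs, at 63.4, 9.10 and 7.51 FPKM. In Akt-LECs it was 89.7, 0 and 1.27 FPKM, with the high value in Akt-LEC 1.

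Gpc4 and Gpc6, glypicans best known from astrocytes as factors for synapse formation, overlapped between MACs and RACVECs. Gpc4 was 423, 328 and 157 FPKM in MACs and 153, 133 and 174 FPKM in RACVECs. It was 41.3, 8.14 and 0 FPKM in Akt-RACVECs, below every RACVEC library. Sox17-RACVEC 1 and Sox17-RACVEC 3 held 223 and 165 FPKM, in the range of the RACVECs or above it, while the library labelled Sox17-RACVEC 2 lists it at 0. Gpc6 was 159, 109.1 and 109 FPKM in MACs, 136, 60.7 and 74.2 FPKM in RACVECs and 15.0, 2.24 and 0 FPKM in Akt-RACVECs. In LSECs, Akt-liver ECs and Akt-LECs it was at most 1.49 FPKM except in Akt-liver EC 1 with 10.5 FPKM and Akt-LEC 1 with 14.4 FPKM.

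Of the 2 glypicans that are not among the 9 genes, Gpc5 was listed above 0 in Akt-MAC 2 alone, at 2.83 FPKM, and was too low to test. Gpc2, a glypican of the developing nervous system, was between 12.3 and 52.2 FPKM in MACs and Akt-MACs. It was 15.5, 24.3 and 23.9 FPKM in Akt-liver ECs against 1.04, 0.99 and 0 FPKM in LSECs, and this difference passed the test (log2 fold change 3.77, SE 0.94, limma adjusted p = 0.00446), with 3 of 3 libraries above all LSECs. Gpc2 too was listed with earlier results of these data known, so this p is given as a description.

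**Figure D2:**
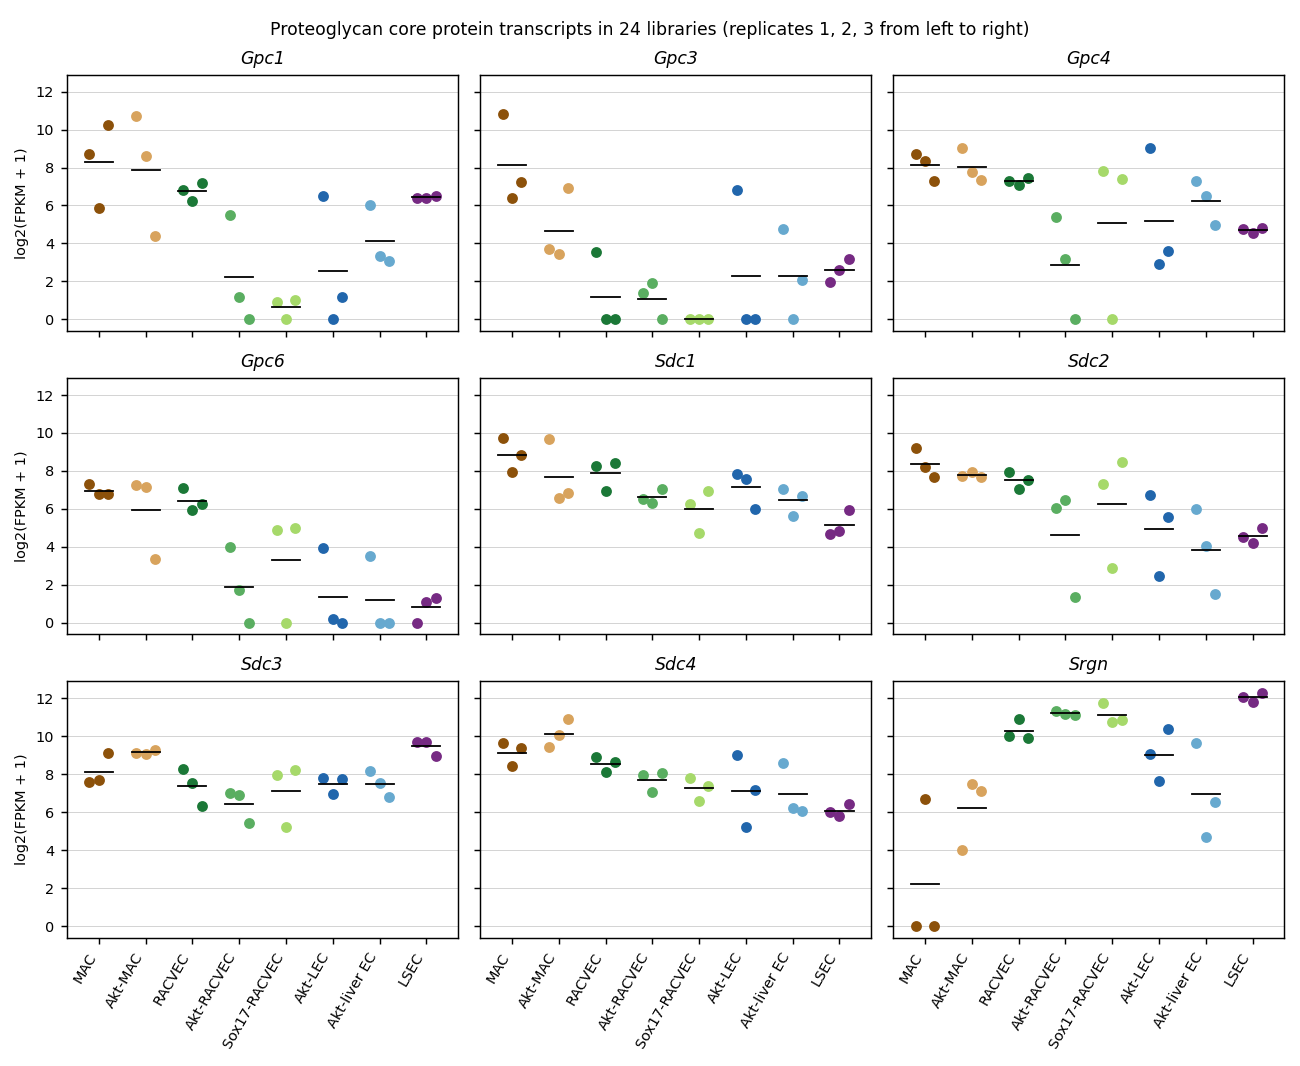
Levels of the 9 core protein transcripts as log2(FPKM + 1), 1 panel per gene, with 1 point per library and a line at the mean of the 3 libraries of each group. Gpc1, Gpc4 and Gpc6 are at 60.7 FPKM or more in all RACVECs and at 44.1 FPKM or less in all Akt-RACVECs, while Srgn is at 971 FPKM or more in all libraries of RACVECs, Akt-RACVECs, Sox17-RACVECs and LSECs.

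The syndecans were listed above 0 in all 24 libraries. Sdc4, which works with integrins at focal adhesions, was the highest syndecan by group mean in both groups of amniotic cells, in RACVECs with and without Akt and in Akt-LECs. Its FPKM was 789, 348 and 661 in MACs, 706, 1085 and 1902 in Akt-MACs, 474, 275 and 402 in RACVECs and 251, 135 and 263 in Akt-RACVECs. The Akt-RACVEC libraries were below all RACVECs, and the RACVECs overlapped with the MACs. In LSECs Sdc4 was 63.6, 55.7 and 84.2 FPKM, the lowest group mean of the 8.

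Sdc3, the syndecan described mainly in nervous tissue, had the opposite order in liver. It was 843, 836 and 507 FPKM in LSECs, where it made up 85.0% of the summed syndecans, and 290, 184 and 113 FPKM in Akt-liver ECs, without overlap. Akt-MACs held 556, 530 and 628 FPKM, and all Akt-RACVECs were below them at 128, 121 and 42.0 FPKM. LSECs and Akt-MACs were also the 2 groups with the highest sums of macrophage markers, and the part of these in the Sdc3 level was not tested. Within the Akt-MACs the macrophage sum ran from 911 to 42368 FPKM while Sdc3 was between 530 and 628 FPKM.

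Sdc2, a syndecan of mesenchymal and endothelial cells, was 581, 294 and 202 FPKM in MACs and 246, 133 and 183 FPKM in RACVECs. It was 66.2, 88.2 and 1.53 FPKM in Akt-RACVECs, below all RACVECs, and 158, 6.47 and 357 FPKM in Sox17-RACVECs, where the lowest value is that of the library labelled Sox17-RACVEC 2. Sdc1, the syndecan of epithelia and plasma cells, had group means in the cultured cells from 74.4 FPKM in Sox17-RACVECs to 526 FPKM in MACs. In RACVECs it was 302, 124 and 345 FPKM and in Akt-RACVECs 91.9, 78.3 and 129 FPKM, and these overlapped. Its lowest group was the LSECs with 24.9, 27.5 and 60.1 FPKM.

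Srgn separated the amniotic from the converted cells. It is listed at 0 in MAC 1 and MAC 3 and was 104 FPKM in MAC 2, and Akt-MACs held 15.1, 182 and 137 FPKM. RACVECs held 1047, 1908 and 971 FPKM, and each was above all MACs and Akt-MACs. Akt-RACVECs held 2553, 2357 and 2227 FPKM, all above the highest RACVEC library, and Sox17-RACVECs held 3484, 1733 and 1877 FPKM, which overlapped with the RACVECs. The highest level was in LSECs with 4376, 3581 and 4999 FPKM, all above every other library. Cultured ECs of tissue were lower and uneven, at 531, 196 and 1335 FPKM in Akt-LECs and 813, 24.7 and 91.6 FPKM in Akt-liver ECs. By group mean the order was LSECs, Akt-RACVECs, Sox17-RACVECs, RACVECs, Akt-LECs, Akt-liver ECs, Akt-MACs and MACs, and of the neighbours in that order all but LSECs and Akt-RACVECs had libraries that overlapped.

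As Srgn is also a gene of blood cells, their markers are given beside it. Of the 7 macrophage markers found, 5 were at 0 in all RACVECs, and the sum was 14.2, 304 and 8.95 FPKM there, mostly Lyz2. In Akt-MACs the sum reached 42368 FPKM at an Srgn level of 137 FPKM. In Akt-RACVECs the macrophage sums were 162, 50.8 and 5.35 FPKM at Srgn levels of 2553, 2357 and 2227 FPKM. The library with the highest macrophage sum also had the highest Srgn in RACVECs, Akt-RACVECs, Sox17-RACVECs and Akt-liver ECs. In MACs, Akt-MACs, Akt-LECs and LSECs these were different libraries. The part of macrophages in these levels was not tested. In LSECs all 7 macrophage markers were above 0, with the Kupffer cell gene Clec4f at 4942, 4169 and 2965 FPKM, and their part in the Srgn level was not tested. Of the 6 mast cell markers, 5 were at 0 in all LSECs, and the other, Kit, was 698, 548 and 342 FPKM there. The sum of 8 other leukocyte and platelet markers was between 12.3 and 255 FPKM in RACVECs and between 177 and 779 FPKM in Akt-RACVECs, and their part was not tested.

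**Figure D3:**
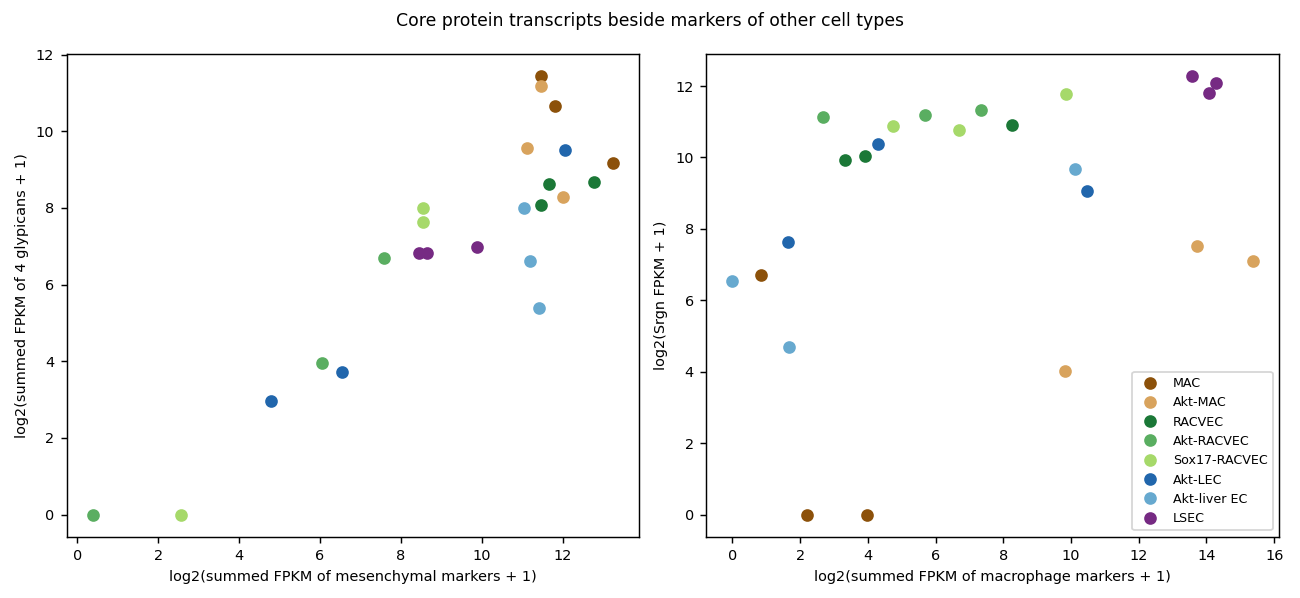
Each point is 1 library, coloured by group, and all axes are log2 of summed FPKM + 1. The left panel sets the 4 glypicans against 8 mesenchymal markers and the right panel sets Srgn against 7 macrophage markers. The libraries with glypicans at 0, Akt-RACVEC 3 and the library labelled Sox17-RACVEC 2, hold the lowest mesenchymal sums of 0.31 and 4.93 FPKM. MAC 2 holds the highest mesenchymal sum, 9777 FPKM, at a glypican sum of 578 FPKM. Akt-MAC 2 and Akt-MAC 3 have high macrophage sums beside Srgn levels of 182 and 137 FPKM. Sox17-RACVEC 1 and Akt-liver EC 1 are the highest of their groups in both macrophage sum and Srgn.

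Mesenchymal markers are given beside the glypicans in the same way. The 8 markers, collagens and stromal genes, summed to between 2849 and 7011 FPKM in RACVECs, to 190, 64.8 and 0.31 FPKM in Akt-RACVECs and to 374, 4.93 and 374 FPKM in Sox17-RACVECs. Akt-LEC 1 had 4277 FPKM of them where the other Akt-LECs had 26.8 and 93.1 FPKM, and it was also the Akt-LEC library with the highest levels of all 4 glypicans and all 4 syndecans. In MACs the mesenchymal sums were 2841, 9777 and 3603 FPKM at glypican sums of 2793, 578 and 1631 FPKM. In Akt-MACs they were 2838, 2226 and 4114 FPKM at glypican sums of 2336, 752 and 311 FPKM. The part of mesenchymal cells in the glypican levels was not tested. In Akt-liver ECs the mesenchymal sum was similar in the 3 libraries, from 2125 to 2710 FPKM, while the glypican sum was 256, 97.2 and 41.0 FPKM. That even sum joins markers that differed by library. Col1a1 was high in Akt-liver EC 1 alone of this group, which is also the library with the highest glypican sum. The part of mesenchymal cells was not tested here either.

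The groups were then compared with limma on log2(FPKM + 1) over the 14964 genes that averaged 1 FPKM or more, and a gene counted as called at an adjusted p below 0.05 with a log2 fold change past 1 or -1. The 9 genes were chosen with these groups' levels known, so their calls describe them, and nothing is read from their number against that of all genes, which is printed as background. For RACVECs against MACs, which asks what the Ets factors and the EC medium changed, 2 of the 9 genes were called, beside 2.71% of all genes. These were Srgn, higher by a log2 fold change of 8.05 (SE 1.41), and Gpc3, with -6.97 (SE 1.62). The same genes were the ones without overlap, 1 higher beside 11.4% and 1 lower beside 10.5% of all genes. The other 7 lay between -1.54 for Gpc1 and -0.54 for Gpc6. Both calls were lost when only the libraries of these 2 groups entered the fit, and that of Gpc3 also at a pseudocount of 0.1. Since Srgn is listed at 0 in 2 of the MAC libraries, its fold change depends on the pseudocount and was 10.29 without MAC 2, the library that held it. The Gpc3 call was lost without MAC 1, where the log2 fold change was -5.64, and also without RACVEC 2 or RACVEC 3.

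With Akt on both sides, for Akt-RACVECs against Akt-MACs, 6 of the 9 genes were called, beside 19.5% of all genes. Srgn had a log2 fold change of 5.0 (SE 1.41). The 5 lower genes were Gpc1 with -5.66 (SE 1.68), Gpc4 with -5.18 (SE 1.71), Gpc6 with -4.02 (SE 1.41), Sdc3 with -2.70 (SE 0.67) and Sdc4 with -2.44 (SE 0.74), beside 13.4% of all genes called lower. Gpc1 and Gpc6 overlapped between the groups, since Akt-MAC 3 was at 19.6 and 9.31 FPKM. Without overlap, 5 genes were lower (Gpc3, Gpc4, Sdc2, Sdc3 and Sdc4) and 1 higher (Srgn), beside 22.0% and 15.3% of all genes. Akt-MAC 2 and Akt-MAC 3 held many macrophage transcripts. Without both, 2 genes were called, Gpc1 and Srgn, with log2 fold changes of -8.46 and 7.20. The 4 calls lost had log2 fold changes of -6.16 for Gpc4, -5.34 for Gpc6, -2.66 for Sdc3 and -1.76 for Sdc4, with 1 Akt-MAC library left, so those of the glypicans were larger than with all libraries and that of Sdc4 smaller. Leaving out 1 library at a time left between 2 and 6 genes called, with 2 called without Akt-MAC 1, Akt-MAC 2 or Akt-RACVEC 2, 3 without Akt-RACVEC 3 and 4 without Akt-MAC 3.

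When Akt was added to RACVECs or to MACs, 0 of the 9 genes were called, beside 0.261% of all genes for Akt-RACVECs against RACVECs and 2.81% for Akt-MACs against MACs. In Akt-RACVECs the log2 fold changes were -4.53 (SE 1.41) for Gpc6, -4.52 (SE 1.68) for Gpc1, -4.40 (SE 1.71) for Gpc4 and -2.88 (SE 1.42) for Sdc2. All 3 Akt-RACVECs were below all RACVECs for these 4 genes and for Sdc4, which is 5 of 9 genes beside 9.15% of all genes, and above them for Srgn, beside 10.6%. In Akt-MACs 0 of the 9 genes were free of overlap with the MACs, beside 10.7% of all genes that were higher and 4.19% that were lower. Srgn was at 3.97 (SE 1.41) there, and at 6.21 without MAC 2, which was then called. The Akt effect on Gpc1 in MACs was -0.40 with all libraries, 0.59 without MAC 3, 1.36 without Akt-MAC 3 and 2.41 with Akt-MAC 1 as the only Akt-MAC library, so its direction turned on single libraries. That on Gpc6 in MACs turned as well, from -1.04 to 0.24 without Akt-MAC 3. The Akt effect in RACVECs minus that in MACs was -4.12 (SE 2.37) for Gpc1, -4.31 (SE 2.42) for Gpc4 and -3.04 (SE 2.00) for Srgn. Of the 9 genes it was above 0 for Gpc3 alone, at 3.38 (SE 2.29). No member was called for this difference.

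Sox17 in place of Akt gave 0 calls among the 9 genes, beside 0.00668% of all genes, in a group whose libraries disagree. For Gpc1, all Sox17-RACVECs were below all RACVECs, with a log2 fold change of -6.09 (SE 1.68) that was -5.76 without the library labelled Sox17-RACVEC 2. Gpc6, Sdc1 and Sdc4 were also without overlap below the RACVECs, which makes 4 of 9 genes lower beside 6.55% of all genes, while 0 were higher beside 4.05%. Gpc4 had -2.20 with all libraries and 0.33 without the library labelled Sox17-RACVEC 2, Sdc3 had -0.26 and then 0.70, and Sdc2 had -1.28 and then 0.39, so the direction of these 3 genes turned on that library. Akt-RACVECs and Sox17-RACVECs share the RACVEC libraries as their controls.

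RACVECs were set against Akt-LECs to ask how far the converted cells differ from cultured adult ECs. Akt-LECs carry Akt and RACVECs do not, so the source of the cells and Akt cannot be told apart here, and Akt-RACVECs held Gpc6 at 15.0, 2.24 and 0 FPKM where Akt-LECs held 14.4, 0.14 and 0 FPKM. Again 0 of the 9 genes were called, beside 0.261% of all genes. Gpc6 had a log2 fold change of 5.05 (SE 1.41), Gpc1 4.18 (SE 1.68) and Sdc2 2.60 (SE 1.42), with RACVECs above all Akt-LECs for Gpc6 and Sdc2, 2 of 9 genes beside 7.54% of all genes, and below them for 0 of 9 beside 7.68%. Akt-LEC 1 was high in mesenchymal markers, and without it the differences were 6.33 for Gpc6, 6.15 for Gpc1, 4.01 for Gpc4 and 3.50 for Sdc2, and that of Gpc3 turned from -1.09 to 1.18. Srgn was at 1.26 (SE 1.41), and at 1.28 without Akt-LEC 1.

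In the liver, Akt-liver ECs against LSECs compares ECs in culture with ECs taken straight from the organ. Srgn had a log2 fold change of -5.10 (SE 1.41) and Sdc3 of -1.96 (SE 0.67), and these 2 were called, beside 27.0% of all genes. Without overlap, 3 of the 9 genes were lower, beside 24.9% of all genes, and 1 was higher, beside 27.7%. The former were Srgn, Sdc3 and Gpc1, at -2.29 (SE 1.68), and the latter was Gpc4, at 1.54 (SE 1.71). All 7 macrophage markers and all 8 hepatocyte markers were also without overlap below the LSECs, with macrophage sums of 1109, 2.19 and 0 FPKM and hepatocyte sums of 572, 65.1 and 54.6 FPKM in Akt-liver ECs against at least 12103 and 3182 FPKM in LSECs, and their part was not tested. Without Akt-liver EC 1, whose mesothelial and epithelial markers summed to 1691 FPKM against 37.9 and 10.5 FPKM in the others, Srgn was at -6.45 and Sdc3 at -2.30. The Sdc3 call was lost without any 1 of Akt-liver EC 2, Akt-liver EC 3, LSEC 1 or LSEC 2, and that of Srgn without Akt-liver EC 2.

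**Figure D4:**
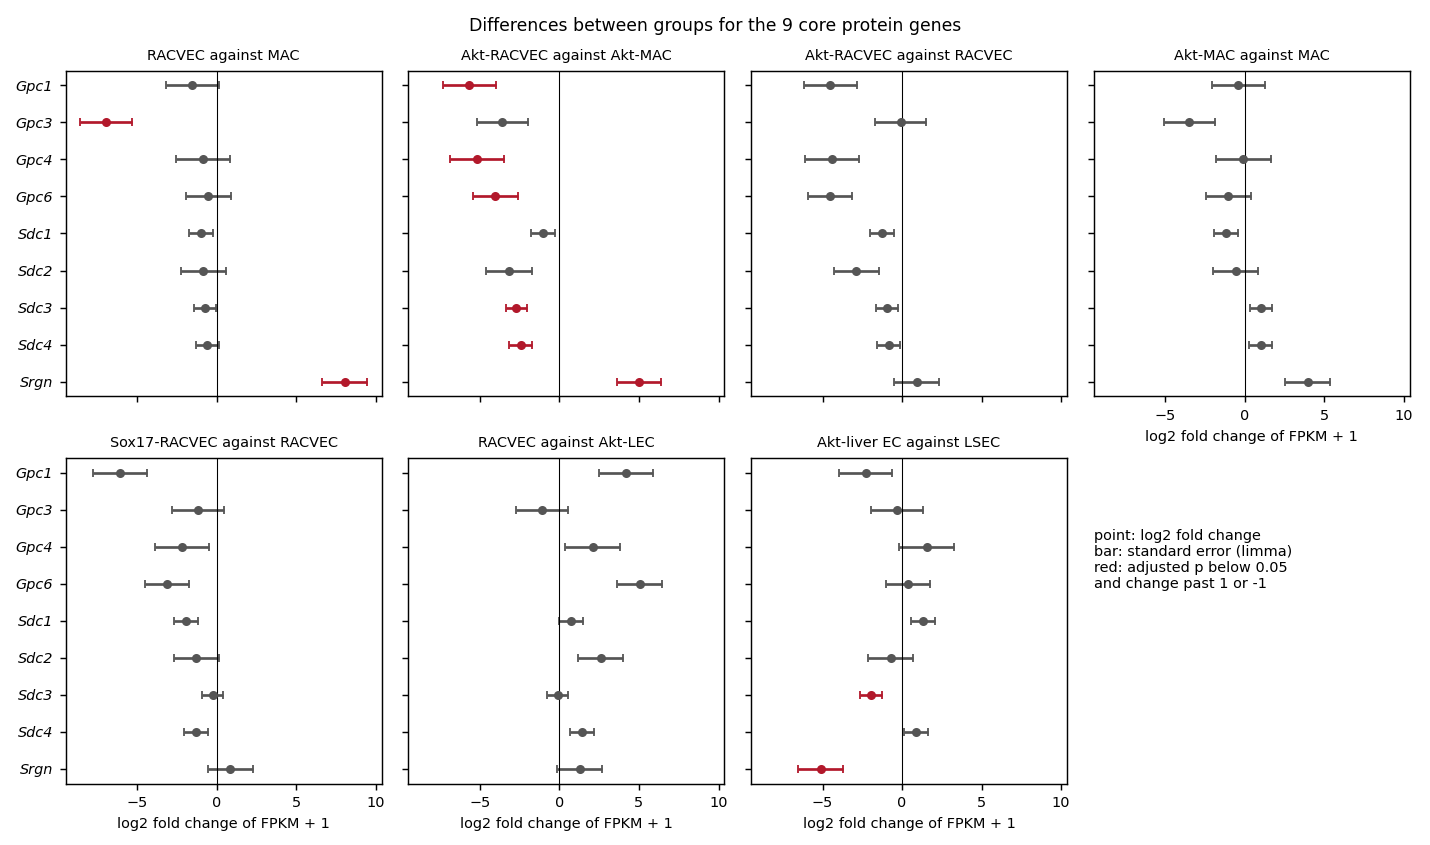
Log2 fold changes of FPKM + 1 for the 9 genes in the 7 comparisons, with bars of 1 standard error from limma. Red points are past, as a description of genes chosen with these levels known, an adjusted p of 0.05 and a log2 fold change of 1 or -1. Srgn is at 8.05 and 5.0 for the converted cells and at -5.10 for Akt-liver ECs, and the glypicans Gpc1, Gpc4 and Gpc6 lie between -5.66 and -4.02 wherever Akt-RACVECs are the first group.

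The enzymes that build and edit the chains are not among the 9 genes and were tested as a list of 52, of which 43 were high enough to be tested. This list, and those of other proteoglycans and of partners of the core proteins, were also chosen with earlier results of these data known. Their p-values are therefore given as a description and are no independent evidence. In RACVECs against MACs, 1 rose and 2 fell, where 2.71% of all genes were called. Csgalnact1, which starts chondroitin sulfate chains, rose from 14.6, 5.81 and 26.6 FPKM to 112, 73.6 and 96.2 FPKM (log2 fold change 2.71, SE 0.71, limma adjusted p = 0.0448). Hs6st1, a 6-O-sulfotransferase of heparan sulfate, fell from 328, 142 and 116 FPKM to 68.4, 35.4 and 45.3 FPKM (-1.85, SE 0.34, limma adjusted p = 0.00497). Chst11, a 4-O-sulfotransferase of chondroitin, fell from 68.3, 34.7 and 153 FPKM to 9.79, 8.44 and 7.71 FPKM (-2.92, SE 0.77, limma adjusted p = 0.0466). All of these libraries were free of overlap, and the median of the 43 log2 fold changes was -0.43 beside 0 for all genes. Leaving out MAC 1 or any 1 RACVEC library left 1 of the 43 called, and leaving out MAC 2 gave 5.

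Chst11 was also the 1 chain gene called in Akt-RACVECs against RACVECs, where 0.261% of all genes were. It rose from 8.65 FPKM on average to 171, 219 and 92.0 FPKM in Akt-RACVECs (log2 fold change 3.98, SE 0.77, limma adjusted p = 0.0363), higher in 3 of 3 libraries. The call was lost without any 1 of these libraries other than RACVEC 2. In Akt-MACs against MACs, 2 chain genes rose, where 2.81% of all genes were called, again with 3 of 3 libraries above all MACs. Xylt2, a xylosyltransferase that starts all these chains, was 39.1, 46.5 and 44.1 FPKM in MACs and 50.3, 219 and 614 FPKM in Akt-MACs (2.11, SE 0.55, limma adjusted p = 0.0447). Its Akt-MAC libraries stood in the order of their macrophage sums of 911, 13621 and 42368 FPKM, whose part was not tested. Hs3st3a1, a 3-O-sulfotransferase of heparan sulfate, was 2.89, 0 and 0.84 FPKM in MACs and 6.60, 22.5 and 4.98 FPKM in Akt-MACs (2.41, SE 0.52, limma adjusted p = 0.0161). Neither was called without both Akt-MAC 2 and Akt-MAC 3, without Akt-MAC 2 alone or without MAC 2, and 1 of them without MAC 1, MAC 3 or Akt-MAC 3. For Chst11 the Akt effect in RACVECs minus that in MACs was 3.85 (SE 1.09), which did not pass the test (limma adjusted p = 0.146). With limma, 0 of the 43 were called for Sox17-RACVECs against RACVECs, with 7 at an unadjusted p below 0.05, and 0 for RACVECs against Akt-LECs, with 8. With a two-sided test on FPKM and no adjustment of p, 1 and 2 were called. The share of all genes at these unadjusted thresholds was not recorded, so nothing is read from these counts.

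For Akt-RACVECs against Akt-MACs, 1 chain gene of the 43 rose and 7 fell, a share near the 19.5% of all genes called. Without Akt-MAC 2, 5 were called in all. Those that fell without overlap were Chpf, a chondroitin polymerising factor, from 322, 311 and 149 FPKM to 16.7, 0.79 and 0 FPKM (-6.29, SE 1.60, limma adjusted p = 0.00957), Hs3st3a1 (-3.35), Extl2 (-1.38), Glce, the epimerase of heparan sulfate (-1.31), and Hs2st1, its 2-O-sulfotransferase (-1.22). Hs3st3a1 is listed at 0 in all Akt-RACVECs, so its value depends on the pseudocount. Csgalnact1, which rose, and Xylt2 and Chst3, which fell, had libraries that overlapped. Among the matrix proteoglycans and the partners of the core proteins, Mmp9, a protease that can shed syndecans, fell (-6.74, SE 1.21, limma adjusted p = 0.00112), as did Spock2 (-4.03) and agrin, Agrn (-2.79), both basement membrane or matrix proteoglycans, while Sdcbp2, a relative of the syndecan binding protein syntenin, rose (4.19, SE 1.23, limma adjusted p = 0.0204). Mmp9 is expressed by macrophages, and in the Akt-MACs it was 21.7, 169 and 536 FPKM in the order of their macrophage markers, whose part was not tested.

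The largest set of chain enzymes differed in liver, where 10 rose and 6 fell in Akt-liver ECs against LSECs, all without overlap, in a comparison in which 27.0% of all genes were called. Sulf2, which removes 6-O-sulfates at the cell surface, rose from 4.09, 3.26 and 3.84 FPKM to 193, 420.2 and 437 FPKM (6.13, SE 0.66, limma adjusted p = 9.58e-07). Hs6st2, a 6-O-sulfotransferase, is listed at 0 in all LSECs and was 66.1, 18.0 and 54.8 FPKM in Akt-liver ECs. Hs3st3b1, a 3-O-sulfotransferase, fell from 124, 177 and 199 FPKM to 11.4, 1.85 and 1.54 FPKM (-5.20, SE 0.81, limma adjusted p = 8.54e-05), and heparanase, Hpse, which cuts the chains, fell from 247, 233 and 243 FPKM to 14.6, 2.53 and 10.9 FPKM (-4.80, SE 1.10, limma adjusted p = 0.00252). Xylt1 (5.0) and Chst11 (4.98) rose. Of the other 10, Extl3, Ext1, Chsy1, Chpf2, B3galt6 and B4galt7 rose and Papss2, Dse, Chst7 and Hs3st3a1 fell.

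**Figure D5:**
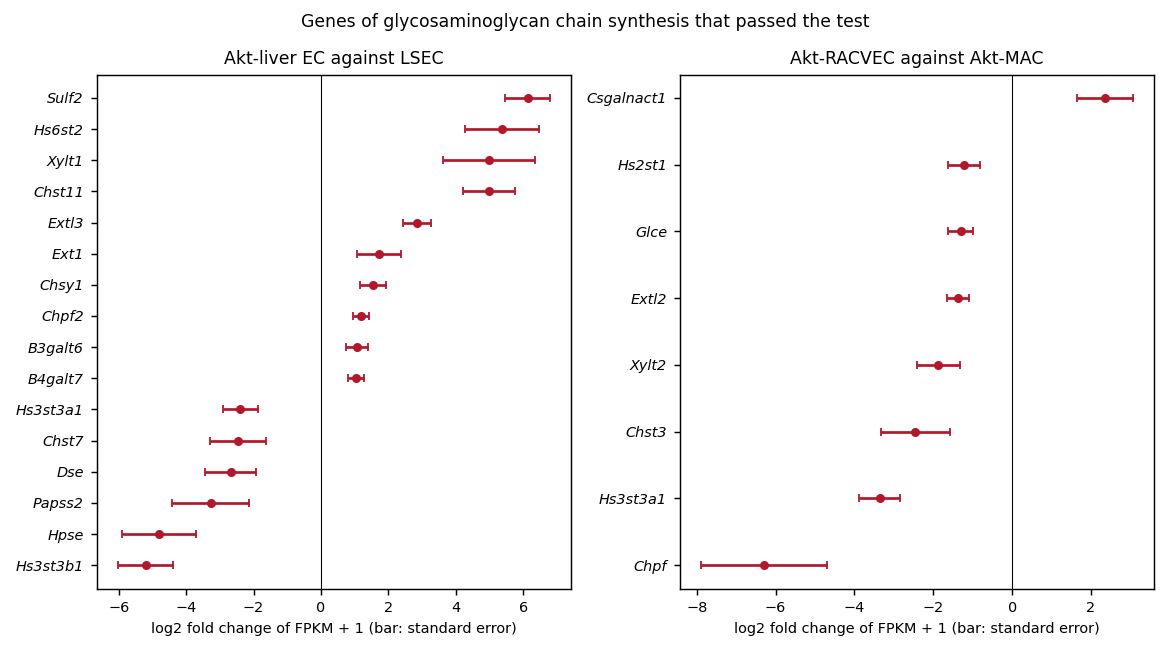
Log2 fold changes of FPKM + 1 with 1 standard error for the genes of chain synthesis and editing that passed the test in 2 comparisons. In liver 10 are above 0 and 6 below, from Sulf2 at 6.13 to Hs3st3b1 at -5.20, and in Akt-RACVECs against Akt-MACs 1 is above 0 and 7 below.

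Other carriers of heparan sulfate and the convertase of glypicans differed in liver too. Col18a1, a basement membrane collagen with heparan sulfate, rose from 2.98, 3.24 and 12.4 FPKM to 586, 3734 and 1939 FPKM (8.06, SE 1.02, limma adjusted p = 7.39e-06). Nrp1, the VEGF coreceptor, fell from 2688, 1897 and 1804 FPKM to 264, 30.03 and 2.30 FPKM (-6.12, SE 0.98, limma adjusted p = 0.000104). Furin, which cleaves glypican core proteins, rose from 81.4, 84.2 and 74.0 FPKM to 269.8, 454 and 342 FPKM (2.11, SE 0.27, limma adjusted p = 9.57e-06). Nrp1 is abundant in sinusoidal endothelium, and LSECs also held transcripts of hepatocytes and Kupffer cells.

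Over the 24 libraries, the 28 pairs among the surface proteoglycans had correlations above 0 and the 8 pairs with Srgn below 0. These correlations of log2(FPKM + 1) are descriptions, since libraries of a group share their treatment and a library with stromal transcripts raises several genes together. The highest Pearson r of the 36 pairs was 0.87 for Gpc6 and Sdc2, followed by 0.80 for Gpc4 and Sdc2 and 0.79 for Gpc4 and Gpc6. Sdc3 stood apart from several surface members, with 0.0021 for Sdc1, 0.22 for Sdc4 and 0.28 for Gpc6. The pairs with Srgn ran from -0.14 with Sdc3 to -0.66 with Sdc1. Among 11502 genes that averaged 10 FPKM or more, the most alike were Grb14 for Gpc1 (r = 0.92), Ndnf for Gpc3 (0.87), Efemp2 for Gpc4 (0.95) and Col6a1 for Gpc6 (0.95). For the syndecans they were Tmem119 for Sdc1 (0.84), Dlat for Sdc2 (0.92), Ccn4 for Sdc3 (0.86) and Speg for Sdc4 (0.90), and for Srgn it was Gngt2 (0.85).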

How the data were processed

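RNA sequencing of 24 libraries was used, 3 in each of 8 groups. The authors mapped paired reads with TopHat to mm9 and deposited FPKM per RefSeq transcript from Cufflinks, with upper-quartile normalization and bias correction. Numbers of reads and software versions are not given in the sources used here, so the depth is unknown, and it cannot be told whether a 0 means no reads or no estimate. The 27583 transcripts were joined to symbols (26930) and summed to 22282 genes. Summed FPKM per library ranged from 1689486 to 2317294. Replicates are described as individual isolates in the sources.

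A single limma model (version 3.58.1, R 4.3.3) of log2(FPKM + 1) held all 8 groups, its variance prior followed the mean, and two-sided p-values were adjusted by Benjamini-Hochberg across the 14964 genes that averaged 1 FPKM or more. Fold changes are on this scale and understate those of low genes. On simulated data for RACVECs against MACs, 181 of 200 genes with a log2 change of 3 and 162 of 200 with a change of 2 were called, and 0 where none was changed. In each run with changed genes, 5 unchanged genes were also called. The noise was normal with the same spread in all groups, and only genes of higher level were changed. Values of 0 and single high libraries, as the members have, were therefore not covered. Python 3.11.15, numpy 2.4.6, pandas 2.3.3 and matplotlib 3.10.9 were used for sums, correlations and figures.

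The members and lists were chosen with earlier results of these data known. Named are the members, Gpc2 and Gpc5, in each comparison up to 6 called chain genes and up to 4 called partners or other proteoglycans of largest change without overlap, the most alike genes (of 3 per member, the first is given) and the marker and transduced genes. Chain genes outside this rule were named after their values were seen. Alternatives were pseudocounts of 0.1 and 10, no filter, a mean FPKM of at least 10, scaling by the median shift, the compared groups only, the replicate number as a block, each library left out, and the criterion of the paper's methods. The fit without Akt-MAC 2 and Akt-MAC 3 was chosen after seeing the data. Hs3st4, Slc35b2 and Cd68 were not used here.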

Additional observations from a re-analysis of the deposited data

How the results depend on the processing

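Of 837 member values under the alternatives, 812 shifted by less than the gene's residual standard deviation, 25 moved further and 0 called values reversed. That spread is wide, so a value can change direction and still count among the 812. An example is Sdc2 for Sox17-RACVECs against RACVECs, from -1.28 to 0.39 without the library labelled Sox17-RACVEC 2. Reversal was scored for called values only, so these counts say little about stability. The share of all genes called was recorded for the main fit only. Counts under the alternatives, with libraries left out or without adjustment of p have no such share beside them. Nothing is read from them about the members or the chain genes as a set. The counts of called genes depended on which libraries shared the estimate of spread. With the compared groups only, RACVECs against MACs gave 0 members and 0 chain genes (2 and 3 with all groups), Akt-RACVECs against Akt-MACs gave 3 and 2 (6 and 8), and Akt-MACs against MACs gave 0 chain genes (2). A pseudocount of 0.1 gave 1 member for RACVECs against MACs, 3 members when Akt-RACVECs were set against Akt-MACs and 1 chain gene for Akt-MACs against MACs, and a pseudocount of 10 gave 1 chain gene for RACVECs against MACs and 1 for Akt-MACs against MACs. For this last comparison, a mean FPKM of at least 10 gave 0 chain genes and scaling by the median shift 1. Without Akt-MAC 2 and Akt-MAC 3, 2 members were called for Akt-RACVECs against Akt-MACs and 0 chain genes for Akt-MACs against MACs, with the lone Akt-MAC library assumed to vary like the other groups.

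Calling genes as the paper's methods do, with no adjustment of p, gave 1 member for RACVECs against MACs, 3 members and 3 chain genes for Akt-RACVECs against Akt-MACs, 3 and 3 for Akt-RACVECs against RACVECs, 0 chain genes for Akt-MACs against MACs, 2 members and 1 chain gene for Sox17-RACVECs against RACVECs, and 1 and 2 for RACVECs against Akt-LECs. Leaving out 1 library gave 1 to 2 members and 1 to 5 chain genes for RACVECs against MACs, 2 to 6 and 5 to 11 for Akt-RACVECs against Akt-MACs, 0 to 1 and 0 to 2 for Akt-MACs against MACs, 0 to 1 chain genes for Akt-RACVECs against RACVECs, 0 to 2 members and 12 to 15 chain genes for Akt-liver ECs against LSECs, and 0 to 1 chain genes for the difference of the Akt effects. Where leaving out a library left an arm of 2, the pooled spread of the other groups was used.

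Whether replicate numbers pair the libraries is not known. In 0 of the 7 comparisons did same-numbered libraries correlate above 0.1 in all 3 pairs, which with 3 libraries a group cannot exclude pairing. Their mean correlation was 0.12 beside -0.062 for other pairs in RACVECs against Akt-LECs, and 0.072 beside -0.033 in Akt-RACVECs against RACVECs. It was the lower of the 2 for RACVECs against MACs, Akt-MACs against MACs and Sox17-RACVECs against RACVECs. With the replicate number as a block in a fit of the compared groups, RACVECs against MACs gave 0 members and 0 chain genes, as did Akt-RACVECs against Akt-MACs. The replicate block gave 0 chain genes each for Akt-RACVECs against RACVECs and Akt-MACs against MACs. No gene of the whole series passed with the block in any of these comparisons. The smallest limma adjusted p of any gene was 0.262, 0.081, 0.289 and 0.569, in the order named. These counts of 0 therefore say nothing about the members or the chain genes. For Akt-liver ECs against LSECs, where other genes did pass, the block gave 1 member. The unknown depth limits what a value of 0 can mean. Of 12 glypican values a group, 6 were listed at 0 in Sox17-RACVECs, 4 in Akt-RACVECs and 4 in Akt-LECs, and Srgn in 2 MAC libraries.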
